A study of Mus musculus with 72 samples.

Results

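Potassium channel genes were followed in RNA from mouse hypothalamus, the brain region that sets feeding, body temperature and energy use. The set was taken as the protein-coding genes whose symbol in the deposited edgeR tables begins with Kcn, matched by Ensembl identifier to the tables of counts. It holds 87 of the 55401 genes that the count tables list. By role, 16 encode pore subunits of the Kv1 to Kv4 voltage-gated channels, 10 encode silent Kv subunits, 10 encode auxiliary subunits, 5 encode Kv7 subunits and 8 encode EAG, ERG or ELK subunits. A further 13 encode inward rectifiers, 14 encode tandem-pore leak channels and 11 encode subunits of calcium- or sodium-activated channels. Another 7 protein-coding Kcn symbols (Kcna3, Kcne3, Kcne4, Kcnj13, Kcnj15, Kcnmb1 and Kcnrg) are listed at 0 in every library and carry no symbol in the edgeR tables, so they are not counted among the 87.

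Potassium channels let potassium leave the cell and so pull the membrane toward rest, which sets how readily a neuron fires. Voltage-gated Kv channels open on depolarization and end the action potential, while Kv7 channels carry the slow M-current that holds back repeated firing. Silent Kv subunits form no channel alone and modify Kv2 channels, and KChIP, beta and KCNE proteins are auxiliary subunits. Tandem-pore channels carry background leak, inward rectifiers include the astrocyte channel Kir4.1, the G-protein-gated GIRK channels and the nucleotide-sensing KATP channel, and the activated group follows calcium or sodium inside the cell. In hypothalamic feeding neurons, KATP, GIRK and M-type channels are textbook routes by which hormones and nutrients alter firing.

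The mice were adult B6 animals from 5 lines, E1 to E5, each with its own wild types and with knockouts of 1 conserved noncoding element whose position the labels do not give. Mice of each line and genotype were fed or had gone 72 h without food, with water at hand. The 72 libraries form 20 groups of 4 mice each, except that groups of 3 were used for fed and fasted E3 wild types and knockouts, fasted E2 wild types and knockouts, fasted E4 knockouts and fasted E1 wild types. All mice were adults, and the labels give no sex, exact age, agent or transgene. Depth ran from 5517552 to 39999368 counts per library, and levels are given as CPM, the count scaled to a common library total. Fed and fasted libraries carry the same sequencing request number in their batch label only in E1 and in E3. In E2, E4 and E5 request and feeding state coincide. Lists of marker genes were summed in CPM as a check on the dissection. The 10 hypothalamic markers summed to 126 to 2395 CPM over the 72 libraries. Single libraries stood apart in markers of neighbouring tissue. The 6 cortex and hippocampus markers summed to 285.9 in fasted E1 wild type 3, 344 in fasted E1 knockout 4 and 259 in fasted E3 wild type 2, against a median of 22.4 over all libraries. The 8 choroid plexus markers summed to 604 in fed E3 knockout 3, 715 in fasted E3 knockout 2, 443.6 in fasted E3 wild type 1 and 3244 in fasted E5 wild type 1, against a median of 33.5. The 9 anterior pituitary markers reached 20200.4 in fasted E5 knockout 3 and 1287 to 12274 in the fasted E2 wild types, against a median of 19.1.

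The upstream sequence of 4 members called in fasted wild types is printed here: Kcnk13 and Kcnf1, which kept that call whichever library was left out, Kcna6, which like Kcnk13 was also called in knockouts, and Kcnj10, the 1 of the 4 that holds the hexamer marked in capitals. Kcna6 and Kcnj10 lost their wild type call in fits that left out 1 library. Each run is the 250 bases before the RefSeq start on the gene's own strand, 5′ to 3′, in GRCm38.p6. The window of Kcnk13 is chr12:99964249-99964498 on the plus strand, Kcna6 at chr6:126740675-126740924 on the minus strand, Kcnf1 at chr12:17176889-17177138 on the minus strand and Kcnj10 at chr1:172340960-172341209 on the plus strand. Capitals mark the hexamer that makes up 1 side of a glucocorticoid receptor site (AGAACA, or TGTTCT on the other strand); the receptor binds corticosterone, a hormone that rises in fasting.
Kcnk13: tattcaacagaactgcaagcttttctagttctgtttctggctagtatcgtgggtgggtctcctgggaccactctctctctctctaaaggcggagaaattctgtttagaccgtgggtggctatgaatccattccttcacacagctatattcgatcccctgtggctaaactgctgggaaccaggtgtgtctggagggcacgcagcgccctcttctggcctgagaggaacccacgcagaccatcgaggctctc
Kcna6: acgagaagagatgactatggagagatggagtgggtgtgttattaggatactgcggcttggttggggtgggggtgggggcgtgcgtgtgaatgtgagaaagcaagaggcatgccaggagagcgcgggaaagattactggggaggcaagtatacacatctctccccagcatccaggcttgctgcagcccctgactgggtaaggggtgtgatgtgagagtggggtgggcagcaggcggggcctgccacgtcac
Kcnf1: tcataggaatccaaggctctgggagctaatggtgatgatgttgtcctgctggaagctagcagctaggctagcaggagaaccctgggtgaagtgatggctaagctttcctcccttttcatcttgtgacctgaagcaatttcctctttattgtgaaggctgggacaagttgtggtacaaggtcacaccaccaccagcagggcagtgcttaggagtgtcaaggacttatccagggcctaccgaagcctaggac
Kcnj10: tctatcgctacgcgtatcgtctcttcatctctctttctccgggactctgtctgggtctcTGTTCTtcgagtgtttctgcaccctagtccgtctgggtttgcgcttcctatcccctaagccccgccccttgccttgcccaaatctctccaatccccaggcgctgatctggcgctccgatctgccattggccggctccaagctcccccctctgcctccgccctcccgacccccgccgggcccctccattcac
GC content of these windows was 52.8% for Kcnk13, 58.8% for Kcna6, 51.2% for Kcnf1 and 62.0% for Kcnj10, and they held 8, 8, 1 and 17 CpG pairs in that order. The RefSeq table held a promoter for 62 of the 87 members. Those 62 have 86 promoters between them, and the hexamer stood in the 250 upstream bases of at least 1 promoter of 11 of the 62. Counted per promoter rather than per gene, the hexamer stood in 16.1% of 32851 mouse promoters of the same length. Among the 16 members called in a fasting comparison that the table holds, Kcne2, Kcnj10 and Kcnk10 carried it. A full cAMP response element (TGACGTCA, the same on both strands) was in none of the 62 members and in 1.55% of all promoters. The FOXO core (GTAAACA, or TGTTTAC on the other strand) was likewise in none of the 62, and in 3.17% of all promoters. A match in this window is a description of letters and not a site that was measured.

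Among the 87 members, 55 had a median group level of at least 10 CPM, 21 lay from 1 to 10, 7 from 0.1 to 1 and 4 under 0.1. A filter on low counts kept 76 members in all 20 comparisons and Kcna7, Kcne1, Kcnj1, Kcnk15 and Kcnk16 in none. Levels were compared between genes as CPM per kilobase of exon. In that unit the most abundant member of each role was Kcnip4 among auxiliary subunits (566, the median of the 20 group means), Kcnd2 among pore subunits (174), Kcnj10 among inward rectifiers (52.4) and Kcnma1 among activated channels (44.3). In the other roles it was Kcnq3 for Kv7 (37.4), Kcnh5 for EAG, ERG and ELK (19.2), Kcnk2 for leak channels (13.3) and Kcnf1 for silent subunits (5.89). Kcnd2 encodes Kv4.2, the A-type channel of dendrites, and Kcnip4 encodes a KChIP partner of Kv4 channels. Kcnma1 encodes the BK channel pore, Kcnj10 encodes Kir4.1 of astrocytes and Kcnq3 encodes an M-current subunit. How reads in introns were counted is not given in the sources used here. Per kilobase of genomic span, introns included, 2 of 8 roles kept the same leading gene, Kcnj10 and Kcnf1, and Kcnip4 stood at 1.81. The highest members by span were Kcna2 (13.7), Kcnj10 (8.61) and Kcna1 (8.22), all with short genes, so the order between long and short genes depends on the length used.

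**Figure D1:**
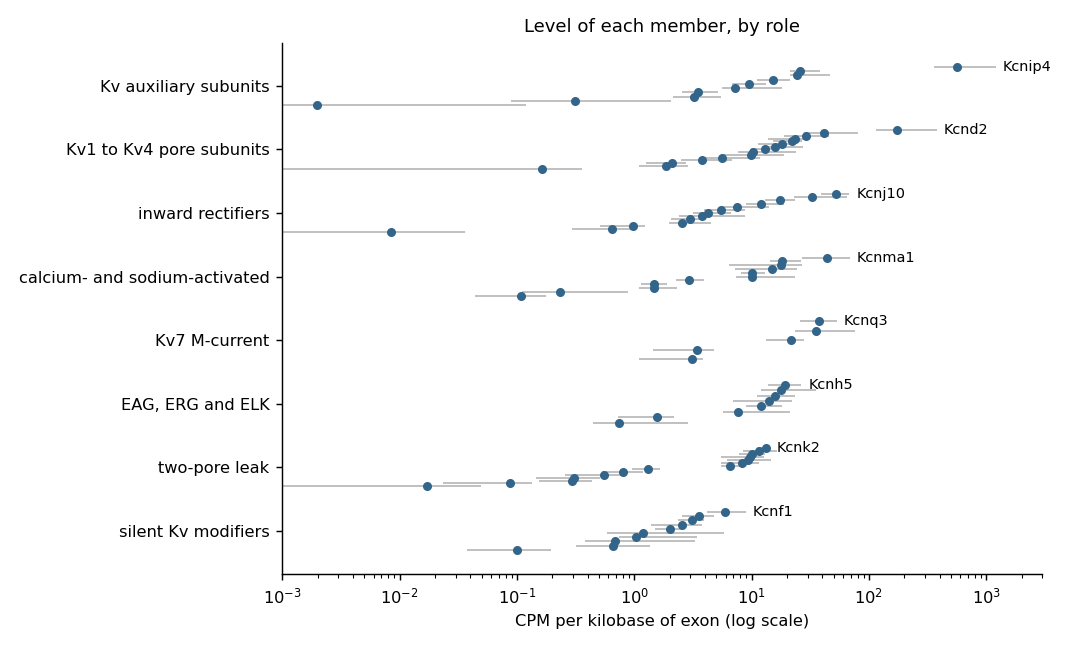
Level of every member with a median above 0, by role, as the median of the 20 group means in CPM per kilobase of exon on a log axis. Grey lines run from the lowest to the highest group mean, cut at the left edge of the axis where a group was at 0. Kcnip4 at 566 and Kcnd2 at 174 stand above the rest, and the leading silent subunit, Kcnf1, is at 5.89.

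Within roles the spread was wide. Among Kv pore subunits the A-type gene Kcnd2 was followed by Kcnc2 (41.3 CPM per kilobase) and Kcnb2 (28.9), while Kcna10 was at 0.162 and Kcna7 at a median of 0. Among leak channels, Kcnk2, Kcnk1, Kcnk9, Kcnk3 and Kcnk13 (TREK-1, TWIK-1, TASK-3, TASK-1 and THIK-1) had levels from 9.25 to 13.3, an order whose neighbours overlapped between groups. The GIRK subunit genes Kcnj3, Kcnj6, Kcnj9 and Kcnj5 stood at 32.7, 17.5, 12.1 and 3.001, in that order. Kcnj11, the pore of the neuronal KATP channel, stood at 4.28 and Kcnj8, a KATP pore known from pericytes, at 0.647. Variation among replicates differed between members. The within-group coefficient of variation was 12% for Kcnk2, 12% for Kcnj10 and 10.7% for Kcnc1, near the low end, and 20% for Kcnd2, 23% for Kcnma1 and 25% for Kcnip4. It was far larger for Kcnh3, Kcnj4, Kcng1 and Kcnv1, at 120%, 83%, 75% and 70%; Kcnh3, Kcnj4 and Kcnv1 are known for high levels in forebrain outside the hypothalamus. Kcne2, a KCNE subunit abundant in choroid plexus, had 180%.

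The 4 E3 groups, sequenced under a request of their own, had the highest group means of Kcnip4 and Kcnd2 and the lowest of Kcnt1. Kcnip4 stood at 4263 ± 1025 CPM (SD, n = 3) in fed E3 wild types and 2079 ± 449.8 CPM (SD, n = 4) in fed E1 wild types. Kcnt1, which encodes the sodium-activated Slack channel was at 87.5 ± 8.25 CPM (SD, n = 3) in fed E3 wild types and 201 ± 19.1 CPM (SD, n = 4) in fed E1 wild types. Line and request coincide there, so they cannot be told apart, and line levels were not tested against each other.

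For fasting, wild types of both E1 and E3 entered 1 fit with line as a covariate, because fed and fasted libraries share a request there. At an edgeR adjusted p under 0.05, 10.7% of 15159 genes were called. Of 79 members tested, 13 were called, 5 higher and 8 lower in fasted mice, where 5.13% of all genes were called higher and 5.59% lower. The higher genes were Kcnv1, Kcns1, Kcnf1, Kcne2 and Kcna5. The lower ones were Kcnk13, Kcna6, Kcnmb2, Kcnc1, Kcnj10, Kcnn3, Kcnk3 and Kcnk10. The median log2 difference of the 79 members was -0.10, beside 0.0096 over all genes tested. In the knockouts of the same 2 lines, 19.2% of 15246 genes were called, 10.8% higher and 8.36% lower. There 10 of 80 members were called: Kcng4, Kcna1 and Kcnab2 rose, and Kcnk13, Kcna6, Kcnb2, Kcnu1, Kcnh1, Kcnip2 and Kcnq5 fell. The members' median was 0.022, beside 0.0074 over all genes. Kcna6 and Kcnk13 were called in the same direction in both genotypes, 2 of the 13 and 2 of the 10. Over all genes 806 were shared in this way, 49.6% of those called in wild types and 27.5% of those called in knockouts. DESeq2 called 15 members in wild types, with 17.6% of genes, and 13 in knockouts, with 23.9%. At an unadjusted p under 0.05, 28 members passed in wild types (29.1% of genes) and 22 in knockouts (34.5%). By role, the median log2 ran from -0.15 (pore subunits and leak channels) to 0.32 (silent subunits) in wild types, and from -0.14 (Kv7) to 0.28 (silent subunits) in knockouts.

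These counts rest on few animals. Among 13 fits that each left out 1 wild type library, Kcnk13 and Kcnf1 kept their call in every fit. The count of 13 fell to 4 without fasted E1 wild type 1, 6 without fed E1 wild type 2, 5 without fed E1 wild type 3, 4, 6 and 8 without fasted E3 wild types 1, 2 and 3, and 2 and 3 without fed E3 wild types 2 and 3. In the knockouts, Kcng4, Kcnh1, Kcnip2, Kcnk13 and Kcnu1 kept their call in each of 14 such fits. The count of 10 went to 6 without fasted E1 knockout 2, fed E1 knockout 1 or fed E1 knockout 4. It went to 19 without fed E3 knockout 3, a library high in choroid plexus markers. Shares of all genes called are not set beside these left-out counts, so members are not compared with other genes there. Without both fasted wild types high in cortex and hippocampus markers, 17 of 82 members were called, 5 higher and 12 lower, beside 20% of all genes, while Kcnj10, Kcns1 and Kcnv1 lost their call. Without fasted E1 knockout 4, fed E3 knockout 3 and fasted E3 knockout 2, each high in cortex and hippocampus or choroid plexus markers, 19 of 80 members were called in knockouts, 6 higher and 13 lower, beside 25.5% of all genes, and each of the 10 was among them. The labels do not say that replicates are separate litters or dissections, so the p-values measure only the spread between these samples, which may be technical.

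Kcnk13 was the leak channel that fell in both genotypes. It encodes THIK-1, a tandem-pore channel that is a main potassium conductance of mouse microglia. In E1 wild types its level was 31.6, 38.9, 35.7 and 36.1 CPM fed and 26.8, 22.9 and 32.5 CPM fasted. In E3 wild types it was 41.0, 43.1 and 52.9 CPM fed and 23.5, 27.1 and 31.3 CPM fasted. All 6 fasted wild types but the highest E1 library lay under every fed library of their line, and the groups did not overlap in E3. Over both lines Kcnk13 fell (log2 -0.55, SE 0.11, edgeR adjusted p 0.00895). Its knockout levels were 39.0, 37.7, 36.7 and 40.9 CPM in fed E1 and 22.5, 27.5, 25.6 and 26.7 CPM in fasted E1, groups that did not overlap. In E3 they were 38.7, 32.9 and 37.9 CPM fed and 34.5, 28.3 and 29.5 CPM fasted, groups that overlapped. The knockouts' estimate was log2 -0.45, SE 0.080, edgeR adjusted p 0.00196. The 4 microglia markers (Cx3cr1, Tmem119, P2ry12 and Csf1r) summed to 92.5 to 107 CPM in fed and 92.6 to 98.1 CPM in fasted E1 wild types, and to 86.0 to 103 CPM in fed and 92.5 to 114 CPM in fasted E1 knockouts. In E3 wild types they summed to 76.2 to 84.6 CPM fed and 60.7 to 96.6 CPM fasted, and the part of these cells in the fall of Kcnk13 was not tested. In bulk RNA, fewer cells of a type and less RNA per cell cannot be told apart.

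The other leak channels called, Kcnk3 (TASK-1) and Kcnk10 (TREK-2), fell in the wild types by smaller amounts: log2 -0.33, SE 0.089, edgeR adjusted p 0.0296 for Kcnk3 and log2 -0.26, SE 0.077, edgeR adjusted p 0.0427 for Kcnk10. Kcnk3 levels in E3 wild types were 34.5, 33.0 and 31.0 CPM fed and 19.2, 24.2 and 22.0 CPM fasted, which did not overlap. In E1 wild types they were 46.6, 49.0, 47.5 and 39.9 CPM fed and 39.2, 41.4 and 47.1 CPM fasted, which did. In the knockouts the estimates were 0.024 for Kcnk3 and -0.16 for Kcnk10, neither called. In all, 3 of 11 leak channels tested in wild types were called, each lower, beside 5.59% of all genes called lower.

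Among the 14 Kv1 to Kv4 pore subunits tested, Kcna6 and Kcnc1 fell in fasted wild types and Kcna5 rose, while in knockouts Kcna6 and Kcnb2 fell and Kcna1 rose. Kcna6 encodes Kv1.6, a low-threshold delayed rectifier. Its level in E3 wild types was 15.6, 16.4 and 17.2 CPM fed and 7.24, 7.29 and 7.96 CPM fasted, with every fasted library far under every fed one. In E1 wild types it was 14.3, 14.0, 12.3 and 14.3 CPM fed and 12.8, 13.2 and 14.3 CPM fasted, where the groups overlapped. Over both lines the wild type estimate was called (log2 -0.53, SE 0.16, edgeR adjusted p 0.0412). In knockouts it was E1 whose groups stood apart. E1 knockouts had 15.6, 15.1, 15.7 and 14.99 CPM fed and 11.96, 12.2, 12.7 and 12.8 CPM fasted, with no overlap, and E3 knockouts 15.1, 11.9 and 11.0 CPM fed and 9.02, 6.57 and 12.2 CPM fasted, with overlap. The knockouts' estimate was log2 -0.38, SE 0.11, edgeR adjusted p 0.0262.

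Kcnc1 encodes Kv3.1 of fast-spiking neurons. Kcnc1 stood at 278, 229 and 221 CPM in fed and 111, 140.0 and 138 CPM in fasted E3 wild types, and at 244, 262, 283 and 262 CPM in fed and 235, 275 and 263 CPM in fasted E1 wild types. In E3 alone the estimate was log2 -0.86 (edgeR adjusted p 0.00293), and in E1 alone it was log2 -0.064 (edgeR adjusted p 0.689). Kcnb2, which encodes the Kv2.2 delayed rectifier, was lower in fasted E1 of both genotypes, at log2 -0.45 (edgeR adjusted p 0.0213) in wild types and log2 -0.61 (edgeR adjusted p 0.00103) in knockouts. In E3 its estimates were -0.083 and -0.063, neither called. Kcna5 (Kv1.5) rose in wild types (log2 0.48, SE 0.14, edgeR adjusted p 0.041), and its knockout estimate was -0.026.

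Kcna1 encodes Kv1.1, an axonal channel that sits beside the nodes of myelinated fibres. In E1 it was 39.2, 37.8, 46.1 and 57.6 CPM in fed and 90.3, 105 and 63.1 CPM in fasted wild types. In E1 knockouts it was 44.4, 39.2, 39.7 and 47.5 CPM fed and 93.9, 147, 109.6 and 110.1 CPM fasted. Every fasted E1 library lay above every fed E1 library of either genotype. Fitted in E1 alone, Kcna1 rose in wild types, with log2 0.90 (edgeR adjusted p 0.0257), and in knockouts, with log2 1.43 (edgeR adjusted p 6.71e-05). In E3 it was 117, 75.4 and 84.1 CPM in fed and 74.6, 76.1 and 58.5 CPM in fasted wild types, and 98.7, 83.2 and 105 CPM in fed and 79.7, 138 and 67.1 CPM in fasted knockouts. Those groups overlapped, and the E3 estimates were -0.35 and -0.020, so the knockouts' joint estimate (log2 0.80, SE 0.24, edgeR adjusted p 0.027) came from E1. Its beta subunit partner Kcnab2 had the same pattern, with log2 0.67 (edgeR adjusted p 0.00124) in E1 knockouts and 0.16 in E3 knockouts. The 5 markers of mature oligodendrocytes summed to 2955 to 3328 CPM in fed and 3658 to 6756 CPM in fasted E1 knockouts, with no overlap, and to 2618 to 4228 CPM in fed and 2395 to 4878 CPM in fasted E1 wild types, with overlap. The part of these cells in the rise of Kcna1 and Kcnab2 was not tested.

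**Figure D2:**
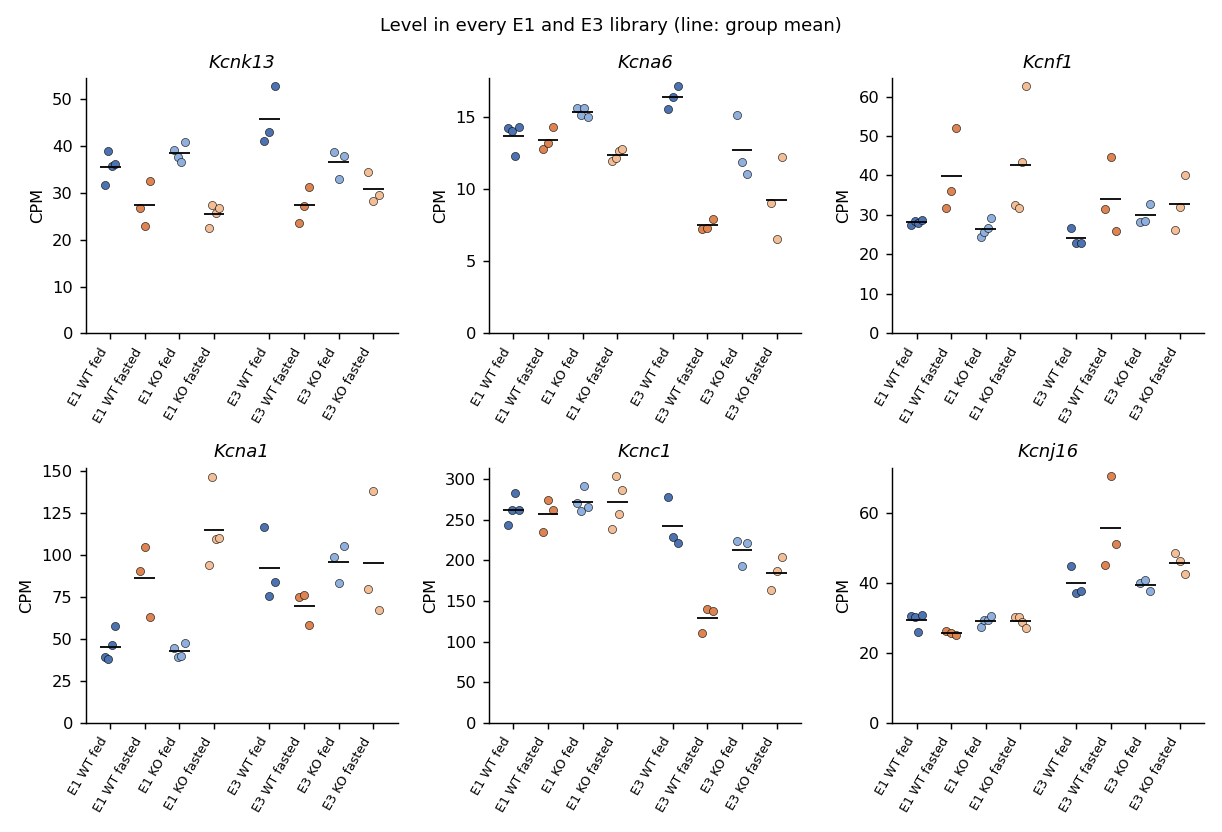
CPM of 6 members in every E1 and E3 library, by line, genotype and feeding state. Points are libraries and black lines are group means. Kcnk13 is lower in fasted than in fed groups in both lines, Kcna1 is higher in fasted E1 and overlaps in E3, and Kcna6 and Kcnc1 are lowest in fasted E3 wild types.

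Of 10 silent subunits tested in wild types, 3 were called, each higher in fasted mice, beside 5.13% of all genes called higher. Of these, Kcnv1 and Kcns1 were not called without the 2 fasted libraries high in cortex and hippocampus markers. Kcnf1 (Kv5.1), the most abundant of them, was 27.6, 28.4, 28.0 and 28.7 CPM in fed and 31.7, 36.1 and 52.0 CPM in fasted E1 wild types. In E3 wild types it was 26.8, 22.9 and 22.8 CPM fed and 31.5, 44.7 and 25.9 CPM fasted. It rose over both lines (log2 0.49, SE 0.11, edgeR adjusted p 0.0162), and every fasted E1 library lay above every fed one. In each line the fasted library with the most Kcnf1 was the one with the highest cortex and hippocampus marker sum. Without those 2 libraries Kcnf1 was still called, at log2 0.28 (edgeR adjusted p 0.0201). In fasted E1 knockouts it was 32.5, 31.8, 43.3 and 62.6 CPM against 24.4, 25.7, 26.6 and 29.3 CPM fed, called in E1 alone with log2 0.69 (edgeR adjusted p 0.0199).

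Kcnv1 (Kv8.1) and Kcns1 (Kv9.1) are silent subunits with high levels in forebrain. Kcnv1 was 4.37, 4.28, 2.36 and 4.81 CPM in fed and 3.99, 4.05 and 16.6 CPM in fasted E1 wild types, and 7.29, 4.28 and 6.75 CPM in fed and 23.1, 46.6 and 9.83 CPM in fasted E3 wild types. The high libraries were again fasted E1 wild type 3 and fasted E3 wild type 2. Over both lines Kcnv1 rose (log2 1.56, SE 0.39, edgeR adjusted p 0.0233), and without those 2 libraries it was not called, with log2 0.81 (edgeR adjusted p 0.0801). Kcns1 rose as well (log2 0.96, SE 0.26, edgeR adjusted p 0.0301), from 1.62, 1.59, 1.72 and 1.41 to 2.42, 2.83 and 5.90 CPM in E1 and from 2.51, 0.921 and 2.11 to 2.95, 3.92 and 1.99 CPM in E3. It too lost its call without the same 2 libraries, with log2 0.60 (edgeR adjusted p 0.0939). All 6 cortex and hippocampus markers were detected in every library, and their sum was 22.5 to 44.3 CPM in fed and 40.1 to 285.9 CPM in fasted E1 wild types, and 38.8 to 62.4 CPM in fed and 47.0 to 259 CPM in fasted E3 wild types. In E1 knockouts fasted Kcns1, at 2.99, 3.33, 2.53 and 4.95 CPM, lay above fed, at 1.005, 1.89, 0.966 and 1.04 CPM, and the marker sum lay at 48.0 to 344 against 16.0 to 23.6 CPM.

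Kcng4 (Kv6.4) rose in knockouts (log2 1.09, SE 0.29, edgeR adjusted p 0.0172). It was 6.23, 3.73, 3.51 and 4.98 CPM in fed and 6.57, 16.6, 7.28 and 12.9 CPM in fasted E1 knockouts, and 8.59, 2.88 and 8.71 CPM in fed and 6.11, 16.2 and 15.5 CPM in fasted E3 knockouts, overlapping in E3. In wild types the estimate was -0.53 and not called. Fasted E1 knockout 2, the library with the most Kcng4 in E1, also had the highest mature oligodendrocyte sum, 6756 CPM, and its part in the result was not tested.

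Kcne2 was the least abundant of the called members by CPM. It was 0.0599, 0.370, 0.127 and 0.209 CPM in fed and 1.16, 0.900 and 1.83 CPM in fasted E1 wild types. In E1 knockouts it was 0, 0.153, 0.203 and 0.347 CPM fed and 1.55, 0.849, 1.19 and 0.790 CPM fasted, so that in E1 every fasted library of either genotype lay above every fed one. Fitted in E1 alone, its difference was log2 2.65 (edgeR adjusted p 0.016) in wild types and log2 2.54 (edgeR adjusted p 0.00204) in knockouts. The choroid plexus sum in E1 was 27.0 to 29.0 CPM in fed and 31.1 to 34.6 CPM in fasted wild types, higher in fasted mice without overlap, and it was 27.5 to 33.4 and 25.4 to 33.7 CPM in fed and fasted knockouts, which overlapped; its part in the difference of Kcne2 was not tested. In E3, fed knockout 3 and fasted knockout 2, the libraries with sums of 604 and 715 CPM, held the most Kcne2, at 2.54 and 2.85 CPM. Kcne2 rests on few reads: 14 to 32 counts in each fasted and 0 to 7 in each fed E1 library.

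**Figure D3:**
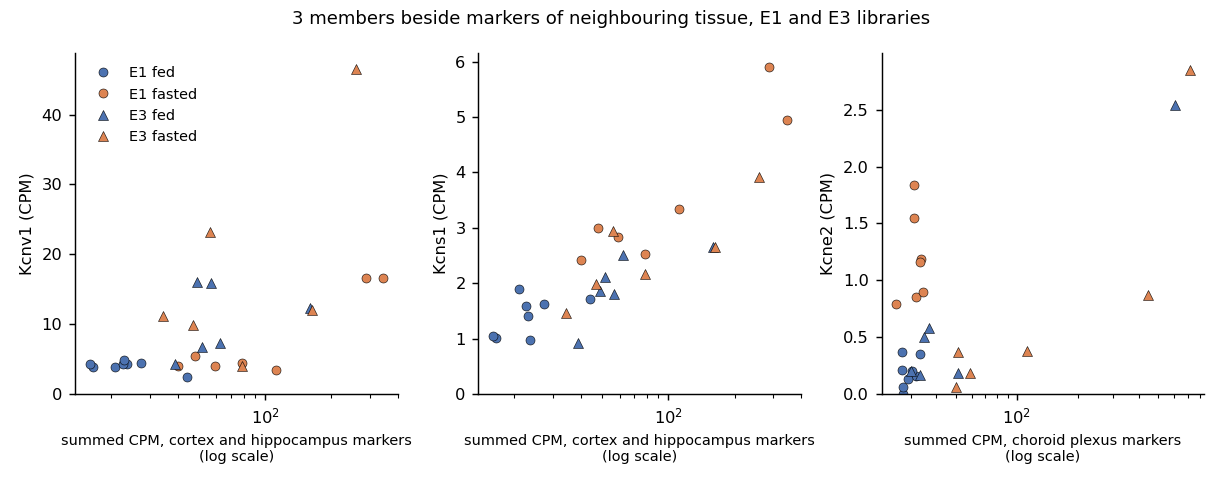
CPM of Kcnv1 and Kcns1 against the summed CPM of 6 cortex and hippocampus markers, and of Kcne2 against 8 choroid plexus markers, in the 28 E1 and E3 libraries; marker sums are on a log axis. The E1 libraries with Kcnv1 at 16.6 CPM have marker sums of 285.9 and 344, while fasted E1 libraries have more Kcne2 than fed ones at choroid plexus sums of 25.4 to 34.6.

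Among auxiliary subunits, Kcnip2, the KChIP2 partner of Kv4 channels, fell in knockouts (log2 -0.61, SE 0.17, edgeR adjusted p 0.0203). It was 44.3, 55.0 and 37.8 CPM in fed and 29.6, 23.3 and 18.4 CPM in fasted E3 knockouts, which did not overlap, and 29.6, 35.7, 41.0 and 32.5 CPM in fed and 24.4, 19.8, 24.7 and 39.5 CPM in fasted E1 knockouts, which did. Striatal markers, 6 in number, summed to 139 to 527 CPM in fed and 105 to 360.0 CPM in fasted E3 knockouts, and their part in the fall of Kcnip2 was not tested. In wild types the estimate for Kcnip2 was 0.079.

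In the EAG, ERG and ELK role, Kcnh1 (EAG1) fell in knockouts (log2 -0.63, SE 0.17, edgeR adjusted p 0.0176), from 129, 123, 117 and 128 to 65.3, 52.2, 60.1 and 86.0 CPM in E1 and from 96.2, 138 and 64.2 to 104, 74.3 and 77.6 CPM in E3, where the groups overlapped. Of the 5 Kv7 genes, Kcnq5 fell in knockouts (log2 -0.51, SE 0.17, edgeR adjusted p 0.047). In wild types its estimates differed in sign between the lines, -0.29 in E1 and 0.45 in E3, and neither was called. Estimates for the M-current gene Kcnq3 were -0.25 in wild types and -0.074 in knockouts, neither called.

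Of 12 inward rectifiers tested, Kcnj10 was called, in wild types only. Kcnj10 was 391, 356 and 321 CPM in fed and 222.9, 263 and 268 CPM in fasted E3 wild types. In E1 wild types it was 378, 341, 386 and 359 CPM fed and 329, 368 and 206 CPM fasted, where 1 of 3 fasted libraries was low. Its estimate was log2 -0.39, SE 0.12, edgeR adjusted p 0.0438 in wild types and -0.026 in knockouts. The 5 astrocyte markers summed to 831 to 993 CPM in fed and 858 to 1008 CPM in fasted E1 wild types, and to 915 to 1120.0 CPM in fed and 1090.3 to 1472 CPM in fasted E3 wild types, overlapping in both lines. The part of astrocytes in the fall of Kcnj10 was not tested, and without the 2 fasted libraries high in cortex and hippocampus markers Kcnj10 was not called, with log2 -0.27 (edgeR adjusted p 0.0578). The feeding-related KATP pore Kcnj11 had estimates of -0.12 in wild types and 0.16 in knockouts, and the GIRK genes Kcnj3, Kcnj5, Kcnj6 and Kcnj9 had 0.045, 0.15, -0.31 and -0.11 in wild types, none called.

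Among calcium- and sodium-activated channels, the BK beta subunit Kcnmb2 and the SK3 pore Kcnn3 fell in wild types (log2 -0.52, SE 0.13, edgeR adjusted p 0.0251 for Kcnmb2 and log2 -0.38, SE 0.10, edgeR adjusted p 0.0301 for Kcnn3). Kcnmb2 did not overlap between fed and fasted wild types in either line, at 44.2 to 73.1 against 37.0 to 44.1 CPM in E1 and 58.9 to 88.6 against 40.9 to 54.3 CPM in E3. Kcnu1, which encodes Slo3, a channel known from sperm, fell in knockouts (log2 -0.43, SE 0.11, edgeR adjusted p 0.0119). It was 5.96, 7.27, 7.58 and 6.19 CPM in fed and 4.54, 4.06, 5.71 and 5.11 CPM in fasted E1 knockouts, and 5.36, 5.84 and 5.03 CPM in fed and 4.48, 4.08 and 4.28 CPM in fasted E3 knockouts, with no overlap in either line. The BK pore Kcnma1 had -0.17 in wild types and 0.17 in knockouts, not called.

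**Figure D4:**
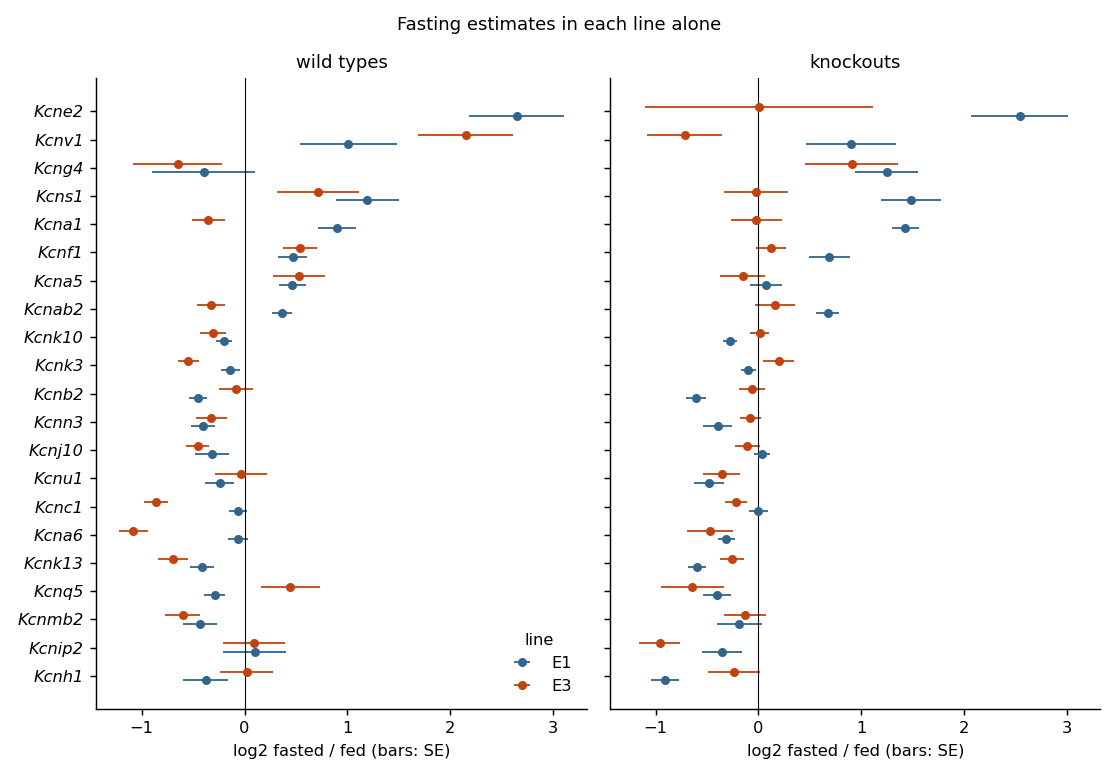
Fasting log2 estimates, with standard errors, for the 21 members called in wild types or knockouts, fitted in E1 alone and in E3 alone. Kcnk13 lies below 0 in all 4 fits, while Kcna1 is above 0 in E1 and at or below 0 in E3.

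The 2 lines gave different sets of calls. In wild types, E1 alone called 3 members (Kcne2, Kcna1 and Kcnb2) with 5.27% of its genes called, and E3 alone called 16, 3 higher and 13 lower, with 19.9%. In knockouts the counts ran the other way: E1 alone called 29 members, 19 higher and 10 lower, with 34.9% of its genes called, and E3 alone called 0, with 0.505%. At an unadjusted p under 0.05, 11 of 77 members (14.3%) passed in the E3 knockouts, beside 13.1% of 14663 genes. The 29 called in E1 knockouts include the KATP pore Kcnj11 (log2 0.45, edgeR adjusted p 0.00227), the GIRK subunit Kcnj9 (log2 0.65, edgeR adjusted p 0.00254) and the beta subunits Kcnab1, Kcnab2 and Kcnab3, all higher. Among those lower were Kcnip1 (log2 -0.58, edgeR adjusted p 7.68e-04) and Kcnh8 (log2 -0.44, edgeR adjusted p 0.00125).

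The difference between lines was itself tested in the wild types, as the fasting estimate in E3 minus that in E1. In that test 13.1% of 15159 genes were called, 6.15% higher and 6.99% lower, and of 79 members 1 was higher and 14 were lower. DESeq2 called 16 members, with 18.4% of genes, and 24 had an unadjusted p under 0.05, with 30.4% of genes. The lower ones span several roles and include the pore subunits Kcna1, Kcna6 and Kcnc1, the beta subunit Kcnab2, and Kcnq1, Kcnh2, Kcnj9, Kcnk1, Kcnk3, Kcnk12 and Kcnt1. The strongest by p were Kcna6 (log2 -1.05, SE 0.16, edgeR adjusted p 0.00225), Kcnc1 (log2 -0.83, SE 0.14, edgeR adjusted p 0.0046), Kcnt1 (log2 -0.81, SE 0.15, edgeR adjusted p 0.00564) and Kcna1 (log2 -1.29, SE 0.28, edgeR adjusted p 0.0109). Kcnt1 shows the opposed directions: it was 185, 222, 212 and 184 CPM in fed and 214, 254 and 297 CPM in fasted E1 wild types, and 95.9, 87.4 and 79.4 CPM in fed and 58.2, 63.9 and 61.4 CPM in fasted E3 wild types. Kcnk1 (TWIK-1) did so as well, with 30.1, 27.9, 30.8 and 29.6 CPM fed and 31.1, 32.8 and 35.0 CPM fasted in E1, and 24.8, 24.9 and 26.1 CPM fed and 17.0, 19.4 and 19.8 CPM fasted in E3, without overlap in either line. Neither Kcnt1 nor Kcnk1 was called in E1 wild types alone. Kcnj16, an astrocyte Kir partner of Kcnj10, was the 1 higher (log2 0.72, SE 0.17, edgeR adjusted p 0.0145). It was 30.6, 30.1, 26.1 and 30.8 CPM in fed and 26.1, 25.6 and 25.0 CPM in fasted E1 wild types, and 44.9, 36.9 and 37.6 CPM in fed and 45.2, 70.6 and 51.0 CPM in fasted E3 wild types. Lines were sequenced under different requests, so line and request cannot be told apart here.

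GC content moved with this line difference. The 14 lower members had a median exon GC of 57.05%, against 52.2% over the 79 tested, and across those 79 genes, which share the same libraries, the log2 difference had r = -0.41 with GC content. After correction of every library for its trend on GC, 6 members were called, beside 9.5% of all genes, all lower: Kcna1, Kcna6, Kcnab2, Kcnc1, Kcnk1 and Kcnt1. Kcnj16 was not among them. Leaving out single libraries gave counts of 8 to 19, and Kcna1, Kcna6, Kcnab2, Kcnc1, Kcnh2, Kcnj16, Kcnk1 and Kcnt1 kept their call in each of the 13 fits. The count of 15 fell to 8 without fasted E3 wild type 1 and to 9 without fed E3 wild type 1, 2 or 3. Shares of all genes called in these left-out fits are not given here. Without both fasted wild types high in cortex and hippocampus markers, 24 of 82 members were called, 5 higher and 19 lower, beside 17.7% of all genes.

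Fasted E5 and fed E2 mice shared a request too, which gives a further fasted against fed contrast, although line and feeding state cannot be told apart in it. In wild types 30.7% of 18753 genes were called, 15.7% higher and 15% lower. Among 80 members 25 were called, 5 higher (Kcnv1, Kcna5, Kcne2, Kcns2 and Kcnj5) and 20 lower. Of the 13 members called in E1 and E3 wild types, 9 were called here in the same direction, which is 9 of 13 and 9 of 25: Kcna5, Kcna6, Kcnc1, Kcne2, Kcnj10, Kcnk10, Kcnk13, Kcnmb2 and Kcnv1. Over all genes 1019 were shared in the same direction, which is 62.7% of the 1624 and 17.7% of the 5749. Those mice are not shared between the contrasts. DESeq2 called 25 members, with 30.8% of genes, and 35 members had an unadjusted p under 0.05, with 42.4% of genes. Kcnk13 had log2 -0.57, SE 0.12, edgeR adjusted p 0.00539, and Kcna6 had log2 -0.69, SE 0.15, edgeR adjusted p 0.00489. Among members called here and not in E1 and E3 wild types, Kcnq5 (log2 -0.60, SE 0.10, edgeR adjusted p 0.00165) and Kcnma1 (log2 -0.60, SE 0.12, edgeR adjusted p 0.00424) had the smallest p. Fasted E5 wild types 1 and 3 were high in choroid plexus and pituitary markers; without both, 6 of 81 members were called, 3 higher and 3 lower, beside 9.23% of all genes. Leaving out 1 library at a time, the count of 25 fell to 15 without fed E2 wild type 2 or fasted E5 wild type 2, 12 without fed E2 wild type 3 and 13 without fasted E5 wild type 3. Shares of all genes called in those left-out fits are not given here. In knockouts the same contrast called 0 of 18581 genes by edgeR. There 9 members had an unadjusted p under 0.05, beside 14% of genes, and DESeq2 called 213 genes (1.34%), 1 member among them.

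Group means of fasted and fed mice can be set side by side in all 10 pairs of line and genotype, 4 of which, in E1 and E3, are within a request. Kcna6, Kcnb2, Kcnh1, Kcnk13 and Kcnn3 were lower in the fasted group of all 10 pairs, 5 of 72 members with at least 1 CPM in every group (6.94%). Over all 13180 such genes 4.49% were lower in all 10 pairs and 5.39% higher, and no member was higher in all 10. Kcnk13 was 38.8 ± 2.50 CPM (SD, n = 4) in fed and 23.9 ± 3.62 CPM (SD, n = 4) in fasted E4 wild types, and 28.1 ± 2.89 CPM (SD, n = 4) in fed and 21.3 ± 4.56 CPM (SD, n = 3) in fasted E2 wild types. In E5 wild types it was 35.8 ± 5.83 CPM (SD, n = 4) fed and 19.1 ± 2.88 CPM (SD, n = 4) fasted. For lines E2, E4 and E5, request and feeding cannot be told apart. In fasted E4 knockout 1 the 10 most abundant genes held 36.33% of counts. CPM of the remaining genes reads lower there, which leans the E4 knockout pair toward fasted lower.

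Genes that work beside potassium channels were taken as a list of 24 (sodium pumps, KATP regulatory subunits, HCN channels, DPP partners of Kv4, cotransporters and others), of which 22 were tested. In fasted wild types 1 rose and 3 fell, and in knockouts 2 rose and 2 fell. The hyperpolarization-activated channel gene Hcn3 fell in both (log2 -0.55, SE 0.083, edgeR adjusted p 0.00276 in wild types and log2 -0.40, SE 0.11, edgeR adjusted p 0.0158 in knockouts). The sodium pump subunit Atp1b1 rose and Tmem175 fell in knockouts, and Dpp6, a Kv4 partner, and Abcc9, a KATP regulatory subunit, fell in wild types. In the difference between lines Abcc8, Abcc9, Hcn2 and Slc12a5 were lower. No partner was called in a genotype comparison.

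Knockout of each element was compared with its wild types within each feeding state, 10 comparisons in all. edgeR called 0 genes in each of them (0%), members included. Members with an unadjusted p under 0.05 numbered 7 in fed E1, 5 in fasted E1, 2 in fed E2, 9 in fasted E2, 16 in fed E3, 12 in fasted E3, 7 in fed E4, 9 in fasted E4, 3 in fed E5 and 7 in fasted E5. The share of all genes at that level was, in the same order, 4.85%, 3.9%, 3.5%, 7.47%, 9.74%, 17.5%, 5.23%, 9.39%, 2.82% and 7.32%. DESeq2 called members in E3 only: 3 higher in fed knockouts with 0.612% of all genes called, and 1 higher and 1 lower in fasted knockouts with 4.84%. It called no member in the other 8, where the share of genes it called was 0% in fed E1 and fed E2, 0.0109% in fasted E1, 0.509% in fasted E2, 0.0101% in fed E4, 0.101% in fasted E4, 0.00331% in fed E5 and 0.15% in fasted E5.

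In fed E3 the members called by DESeq2 were Kcnv1, Kcnj4 and Kcnip2, all higher in knockouts. Kcnv1 was 7.29, 4.28 and 6.75 CPM in wild types and 15.8, 16.0 and 12.3 CPM in knockouts, groups that did not overlap. Its edgeR estimate was log2 1.25, SE 0.20, edgeR adjusted p 0.191, and its DESeq2 adjusted p was 5.64e-05. In the authors' deposited table for this comparison Kcnv1 was the 1 member at an adjusted p under 0.05, with a log2 of 1.25 for knockout over wild type. There 39 of 18055 protein-coding genes passed. No member passed in the authors' deposited tables of the other 7 comparisons read here. In those, 1 to 43 genes passed, of 18093 to 18431 protein-coding genes. Kcnj4 (Kir2.3) was 8.601, 3.74 and 10.6 CPM in wild types and 19.5, 24.7 and 12.9 CPM in knockouts, and Kcnip2 was 23.3, 19.3 and 33.6 CPM in wild types and 44.3, 55.0 and 37.8 CPM in knockouts. Striatal markers were listed beside these 3 genes: they summed to 110.0 to 253 CPM in fed E3 wild types and 139 to 527 CPM in fed E3 knockouts, and cortex and hippocampus markers to 38.8 to 62.4 and 49.1 to 159.8 CPM. The highest striatal sums were those of knockouts 1 and 2, and the part of such tissue in these 3 differences was not tested.

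In fasted E3, Kcnc1 was 111, 140.0 and 138 CPM in wild types and 163, 187 and 205 CPM in knockouts, higher without overlap (log2 0.45, SE 0.13, edgeR adjusted p 0.173, DESeq2 adjusted p 0.044). Kcnt2, the Slick channel, was 187, 132 and 166 CPM in wild types and 116, 127 and 95.3 CPM in knockouts (log2 -0.59, SE 0.18, edgeR adjusted p 0.187, DESeq2 adjusted p 0.0372). Kcnh2, the ERG1 channel, was 30.0, 36.2 and 34.9 CPM in wild types and 42.9, 44.7 and 61.3 CPM in knockouts, with an edgeR adjusted p of 0.183. None of these passed edgeR. Across the 76 members tested there, the log2 difference had r = 0.36 with GC content. Kcnc1 and Kcnh2 have 57.4% and 61.3% GC, and Kcnt2 has 36.6%. At an unadjusted p under 0.05, 12 members passed, 7 higher and 5 lower, beside 17.5% of genes. After correction of every library for its trend on GC, 3 passed, each lower, beside 8.34% of genes. No member passed as higher after that correction, Kcnc1 and Kcnh2 included. The part of GC content in the differences of Kcnc1, Kcnt2 and Kcnh2 was not tested.

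In the other lines no member was called, and the members of smallest p are given as examples. In E1, Kcnh8 was 33.0, 30.2, 27.9 and 25.6 CPM in fed wild types and 36.1, 37.3, 34.1 and 32.8 CPM in fed knockouts, and Kcna4 was 28.0, 24.7, 29.3 and 25.2 CPM in wild types and 23.2, 22.9, 23.1 and 24.7 CPM in knockouts. In fasted E1, Kcng4 was 4.39, 5.46 and 1.38 CPM in wild types and 6.57, 16.6, 7.28 and 12.9 CPM in knockouts, and Kcnv2 was 0.454, 0.514 and 0.573 CPM in wild types and 0.854, 0.909, 0.809 and 0.948 CPM in knockouts. The groups of Kcng4 and Kcnv2 did not overlap, but edgeR adjusted p was 0.954 for both, and 0.953 for Kcnh8 and Kcna4.

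In E2, fed knockouts had more Kcns2, at 18.6, 13.5, 15.8 and 15.4 CPM against 13.9, 9.398, 11.6 and 11.2 CPM in wild types, and more Kcnk3, at 43.9, 41.5, 42.1 and 41.2 against 38.0, 38.8, 36.4 and 37.5 CPM, both with an edgeR adjusted p of 0.866. In fasted E2, the pericyte KATP pore Kcnj8 was 1.48, 1.87 and 2.10 CPM in wild types and 1.09, 0.850 and 1.0001 CPM in knockouts, and the BK beta subunit Kcnmb3 was 0.728, 2.76 and 1.08 CPM in wild types and 0.374, 0.475 and 0.361 CPM in knockouts. The edgeR adjusted p was 0.66 for both. The 6 pericyte and smooth muscle markers summed to 84.9 to 103 CPM in those wild types and 90.3 to 109.7 CPM in those knockouts. Pituitary markers in the fasted E2 wild types summed to 1287 to 12274 CPM against 14.0 to 35.4 CPM in knockouts. The most Kcnmb3 was in wild type 2, the library with the highest sum, 12274 CPM. Without fasted E2 wild type 3, edgeR called 4 members lower in knockouts (Kcnb2, Kcnmb2, Kcnd2 and Kcnj6) with 772 genes called (3.73%).

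In fed E4, Kcnk13 was 38.1, 37.1, 37.5 and 42.5 CPM in wild types and 28.1, 32.6, 34.5 and 29.7 CPM in knockouts, and the GIRK2 gene Kcnj6 was 165, 149, 142 and 189.6 CPM in wild types and 121, 114, 138 and 126 CPM in knockouts, neither overlapping and both with an edgeR adjusted p of 0.787. In fasted E4, Kcnk10 was 48.1, 48.8, 47.2 and 49.4 CPM in wild types and 36.8, 56.8 and 64.7 CPM in knockouts, and the KCNE subunit Kcne1l was 8.36, 6.78, 8.54 and 8.11 CPM in wild types and 4.17, 5.16 and 4.33 CPM in knockouts. For Kcnk10 the knockouts lay on both sides of the wild types in CPM, and the edgeR adjusted p was 0.442, with 0.496 for Kcne1l. The low Kcnk10 value is that of fasted E4 knockout 1. In that library the 10 most abundant genes held 36.33% of counts, against 4.35% to 4.67% in the other fasted E4 libraries. CPM scales to the full library total, so other genes read lower there, and the order of the groups for Kcnk10 is uncertain.

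In fed E5, Kcng4 was 1.16, 1.92, 1.98 and 1.68 CPM in wild types and 2.67, 2.37, 2.36 and 2.14 CPM in knockouts, and Kcnt2 was 98.8, 84.7, 83.9 and 83.5 CPM in wild types and 86.1, 69.5, 68.6 and 74.4 CPM in knockouts, with an edgeR adjusted p of 1 for both. In fasted E5, Kcnh2 was 71.6, 63.3, 69.2 and 70.0 CPM in wild types and 76.9, 85.9, 80.0 and 80.8 CPM in knockouts, without overlap but with an edgeR adjusted p of 0.667. Kcne2 was 11.9, 0.808, 0.736 and 1.01 CPM in wild types and 0.859, 0.698, 0.540 and 0.433 CPM in knockouts (log2 -2.52, SE 0.84, edgeR adjusted p 0.667). Its high library, wild type 1, had the choroid plexus sum of 3244 CPM, and without it the Kcne2 estimate was -0.43.

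**Figure D5:**
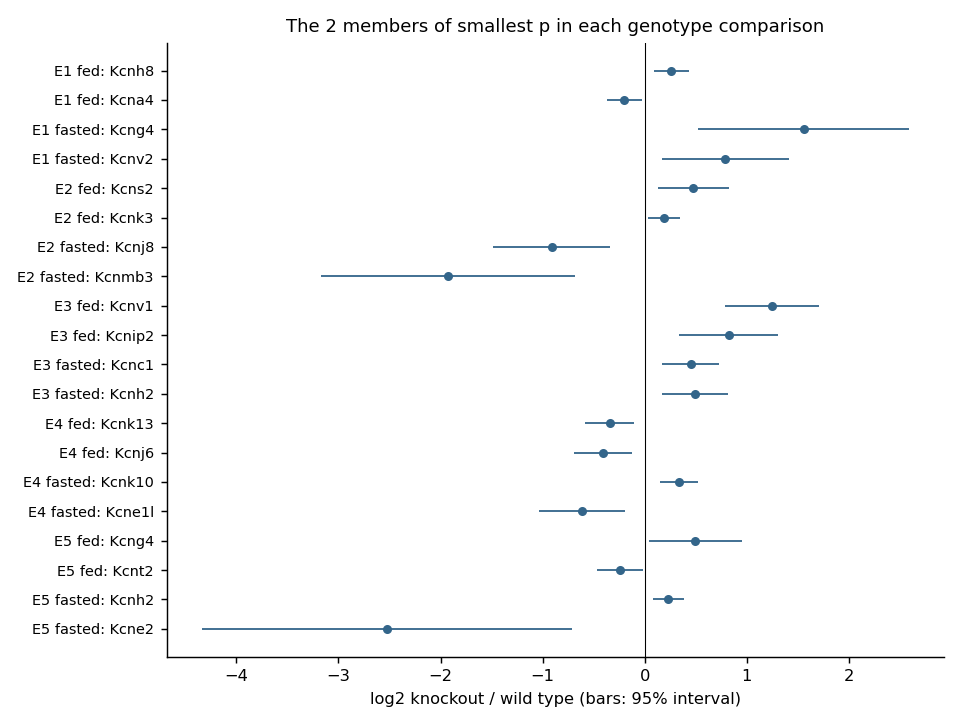
Log2 of knockout over wild type, with 95% intervals from edgeR, for the 2 members of smallest p in each of the 10 genotype comparisons. No interval covers 0, since these members were picked by p, but none passed the adjusted threshold, and Kcne2 in fasted E5 rests on 1 wild type library at 11.9 CPM.

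Whether fasting acted differently in knockouts and wild types was tested in each line as an interaction. In E3 edgeR called 1.34% of 15033 genes and 0 of 80 members, of which 20 had an unadjusted p under 0.05, beside 20.4% of genes. DESeq2 called 9.05% of genes and 3 members, Kcnc1 and Kcnk3 higher and Kcnv1 lower. Their edgeR estimates were log2 0.66, SE 0.16, edgeR adjusted p 0.0572 for Kcnc1, log2 0.76, SE 0.19, edgeR adjusted p 0.0605 for Kcnk3 and log2 -2.84, SE 0.67, edgeR adjusted p 0.0517 for Kcnv1. For Kcnv1 the groups crossed: fasted wild types lay above fed ones, and fasted knockouts, at 11.2, 11.97 and 3.94 CPM, below fed ones, at 15.8, 16.0 and 12.3 CPM. In E1, E2, E4 and E5 edgeR called 0 genes, and 10, 7, 9 and 3 members had an unadjusted p under 0.05, beside 8.1%, 6.45%, 11.2% and 5.95% of all genes. DESeq2 called 0, 25, 1 and 2 genes there in that order.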

How the data were processed

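The data are deposited tables of counts per gene, 10 in all, for 72 libraries of mouse hypothalamus RNA. The submitters' processing notes name HISAT2, Bowtie2, edgeR and mm10; the tool that counted reads, its strand setting and its handling of introns are not given in the sources used here, so reads of overlapping or antisense genes cannot be separated. The authors also deposited edgeR tables for 8 of the 10 genotype comparisons, which hold log2 ratios with p-values and adjusted p-values and were used for symbols and 1 side-by-side count. Every count column was matched to a library (0 unmatched); E3 columns named ctrl and 3CR were read as fed and fasted, as their tables are named.

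Counts were tested in R 4.3.3 by edgeR 4.0.16 (TMM scaling, quasi-likelihood, filterByExpr with a minimum count of 10 and total of 15), on all genes, with Benjamini-Hochberg adjusted p under 0.05 as a call. A log2 difference is fasted over fed, knockout over wild type, or E3 minus E1. CPM is a count scaled to a common library total, and 95% intervals come from the fits. Exon lengths, spans and GC content came from GENCODE annotation of mm10. Alternatives were DESeq2 1.42.0, RLE scaling, no filter, correction for GC trends, other models and leaving out each library. Alternatives that leave out libraries high in other tissues' markers, and the length per genomic span, were chosen after seeing the data. The scripts were tested on simulated data.

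Members, lists and tests were chosen with earlier results of these data known. Members were named by rule: those called in a fasting comparison of E1 and E3 (up to 12 a direction), called in another comparison by edgeR or DESeq2 (up to 6), the 2 of smallest p in each genotype comparison, the most abundant of each role, and listed genes of glia, choroid plexus, pericytes, KATP, GIRK and M-current channels, 49 in all. Other members named (Kcna2, Kcna10, Kcnab1, Kcnab3, Kcnc2, Kcng1, Kcnip1, Kcnk9, Kcnk12 and Kcnq1) were chosen after their values were seen. Results of some genes are not reported here.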

Additional observations from a re-analysis of the deposited data

Results flagged for a closer look

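In groups of 4 libraries, 1 library can lie far from the others, and about 1 group in 20 does so by chance under the test used. Among 77 groups tested, 8 did. Groups of different members share the same libraries, so the 77 are not separate draws, and no share over all genes is given here. In fed E1 wild types, library 3 was the lowest for Kcna6, at 12.29 CPM, and for Kcnj16, at 26.05 CPM, and library 4 was the highest for Kcng4, at 9.514 CPM. In fed E1 knockouts, library 2 was the highest for Kcns1, at 1.893 CPM, and library 4 for Kcna4, at 24.71 CPM. Fasted E1 knockout 4, with the highest cortex and hippocampus marker sum of all libraries, was far above the others for Kcnv1, at 16.58 CPM. Fed E5 wild type 1 was the highest for Kcnt2, at 98.77 CPM. Fasted E5 wild type 1, with the highest choroid plexus sum, was the highest for Kcne2, at 11.9 CPM.

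The fasting estimates of 15 members differed between E3 and E1 wild types by a test of the difference itself (edgeR, E3 minus E1, log2), and 12 of them are given here. Among pore subunits the differences were -1.286 for Kcna1, -1.049 for Kcna6 and -0.8301 for Kcnc1. The beta subunit Kcnab2 had -0.7294. Kcnq1 had -0.8308, and Kcnh2 had -0.6296. Among leak channels Kcnk12, Kcnk1 and Kcnk3 had -0.7384, -0.5412 and -0.441. The sodium-activated Kcnt1 had -0.8119. Inward rectifiers went both ways, with -0.6884 for Kcnj9 and 0.7234 for Kcnj16.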

How the results depend on the processing

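Counts of called members are given here with the setting changed. DESeq2 called 3 for genotype in fed E3, 2 in fasted E3, 3 for the E3 interaction and 1 in fasted E5 against fed E2 knockouts, each 0 by edgeR. Both feeding states in 1 model gave 2 for fasted E3, beside 4.02% of all genes. For the E3 interaction, RLE scaling gave 1, beside 1.71% of genes, and no filter on low counts gave 1, beside 1.12%. Fasting in wild types called 13 with both lines and 3 in E1 alone. Fasting in knockouts called 10 with both lines, 29 in E1 alone, 0 in E3 alone and 19 without 3 libraries high in cortex and hippocampus or choroid plexus markers. The line difference went from 15 to 6 with GC trends taken out and to 24, beside 17.7% of all genes, without 2 fasted libraries high in cortex and hippocampus markers. Fasted E5 against fed E2 wild types went from 25 to 6 without 2 libraries high in choroid plexus or pituitary markers. Per kilobase of genomic span, 2 of 8 roles kept their most abundant member. Leaving out 1 library gave 2 to 19 for fasting wild types, 6 to 19 for fasting knockouts, 8 to 19 for the line difference, 12 to 30 for fasted E5 against fed E2 wild types, 0 to 4 for genotype in fasted E2 and 0 to 3 for the E3 interaction; other genotype and interaction counts were 0 in each such fit. Kcna1 in fasted knockouts turned from 0.80 to -0.020 in E3 alone, and to -0.094 there with the replicate number as a block. Of the other single-gene values, 1622 kept direction and call, 157 lost the call and 39 gained it. Counts from fits without 1 library are given here without the share of all genes called in the same fit. The cause of these changes was not tested.

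Same-numbered libraries correlated over 0.1 in every pair in none of 6 sets of groups (E3 fed: -0.042, 0.039 and -0.083). In fasted E3, same-numbered wild types and knockouts had 0.046, 0.075 and 0.219, and different-numbered ones -0.167 to 0.073. With so few libraries in each group, this check cannot say whether same-numbered libraries were paired. With the replicate block, fasting in E3 knockouts called 0 members, beside 0.13% of all genes. In E3 wild types it called 9 with the block, beside 11.2% of all genes, and 16 without it, beside 19.9%. Depth went as low as 5517552 counts, in an E4 library, and low members such as Kcne2 rest on few reads.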
